A study of Mus musculus with 7 samples.

Results

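The proteasome is the barrel-shaped protease that breaks down proteins tagged with ubiquitin. Its core has outer rings of alpha subunits, which gate entry, and inner rings of beta subunits, which hold the cutting sites. A regulatory particle sits on the core: its ATPases unfold the substrate, and its non-ATPase subunits bind and remove ubiquitin. Cells make most subunits in fixed proportion, and in inflammation immune forms can take the place of the catalytic beta subunits.

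The genes described here are the constitutive subunits of the proteasome with the factors that activate, inhibit or assemble it. They were taken by name: all targets of the probe set whose symbol is Psm, a letter from a to g and a digit. This gave 50 targets, and the 3 immune subunits Psmb8, Psmb9 and Psmb10 were left out. The remaining 47 were drawn from 19951 genes, and 46 of them were among the 13095 genes tested. Of the 47, 8 are core alpha genes, 8 core beta genes, 6 ATPases and 11 non-ATPases of the regulatory particle, and 3 chaperones that help to assemble that particle. A further 5 are activators or an inhibitor and 4 are core assembly chaperones. Psmc3ip and Psme3ip1 matched the name rule but encode proteins that bind a subunit, not subunits.

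RNA was measured in 3 Albumin-stained liver areas from mice on the FFD diet and 3 from mice on the NCD diet, all 24 weeks old, in fixed tissue on 1 slide. The areas were not marked for CLEC4F, a Kupffer cell protein. Both diet names stand as the labels give them, and the region notes mark all 6 areas as WT. The assay counts bar-coded probes released by light from a chosen area, so each value pools the cells collected there. The labels name each collected segment Albumin_pos. The series text counts 3 mice per diet, but the labels do not tie an area to a mouse, and p-values measure only the spread between areas. In bulk areas, fewer cells of a type and less RNA per cell cannot be told apart. Each of the 47 targets was read by 1 probe, so levels are compared between diets and not between genes. The Psme2 probe is shared with Psme2b and a further locus.

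Counts over the tested genes were 2484982 to 2980639 per FFD region and 2069102 to 3491371 per NCD region. Levels are counts scaled to one common library size on the upper quartile, in the unit CPM, and a gene was called where the edgeR quasi-likelihood adjusted p over all genes was under 0.05. By that test 778 genes (5.94%) were higher and 1459 (11.1%) were lower in FFD, and with TMM scaling 1138 were higher and 893 lower. The median log2 fold change over all tested genes was -0.11 with upper quartile scaling, -0.01 with TMM, 0.01 with total counts and 0.28 with negative probe scaling. FFD regions held 1194 ± 102 nuclei and NCD regions 1818 ± 106 (SD, n = 3 each). The detection limit, set at 2 times the negative probe level, was 20.4 ± 1.95 CPM in FFD and 26.7 ± 1.27 CPM in NCD. In the FFD regions the deposited counts were 1.01 to 1.51 times the deduplicated reads, against 0.996 to 0.997 in NCD regions, and the part of this in any diet difference was not tested.

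The areas carried hepatocyte transcripts and those of other cells. Alb, the serum albumin gene, averaged lower in FFD without passing the test (log2 fold change -0.93, edgeR adjusted p = 0.0648). Of 9 tested hepatocyte markers 0 were higher and 5 lower. Apob, not called, had the opposite sign (log2 fold change 0.40, edgeR adjusted p = 0.126). The summed level of the list was 47743 to 79116 CPM in FFD and 91198 to 130772 CPM in NCD. Alb made up most of that sum, with 27971 to 50062 CPM in FFD and 56816 to 84772 CPM in NCD. Kupffer cell and macrophage markers were higher for 8 of 15 and lower for 1, with sums of 1900 to 2581 CPM in FFD and 1168 to 1539 CPM in NCD. The lower gene was Timd4 (log2 fold change -0.68, edgeR adjusted p = 0.0489). Clec4f (-0.00), Folr2 (-0.06) and Marco (-0.54) were among those not called. Lipid-associated macrophage markers were higher for 8 of 9 tested, with sums of 1164 to 1748 CPM in FFD and 317 to 434 CPM in NCD. Of these sums Spp1 held 830, 953 and 193 CPM in FFD regions 1 to 3 and 30.1, 50.5 and 70.9 CPM in NCD regions 1 to 3. Fabp5 averaged lower in FFD without passing (log2 fold change -0.79, edgeR adjusted p = 0.0582), and Ccr2 was under the limit in every region. Stellate cell and fibroblast markers were higher for 10 of 15, with sums of 1329 to 2168 CPM in FFD and 773 to 808 CPM in NCD. Of 5 tested lymphocyte markers 0 were higher and 1 lower, and 6 of the 10 listed were under the limit in every region, Cd3d and Cd4 among them. Of 5 neutrophil markers 0 were higher and 1 lower, and of 10 endothelial markers 1 was higher and 1 lower. Of 4 cholangiocyte markers 1 was higher, Spp1, which is also on the lipid-associated macrophage list. The part of these shifts in the proteasome values below was not tested.

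Across the whole proteasome set, 2 of 46 tested targets were higher in FFD, 0 were lower and 44 did not pass the test. The background for the same call was 5.94% of all genes higher and 11.1% lower. The 2 that passed were Psmd8, a regulatory particle subunit, and Psme1, an activator subunit. At an unadjusted p under 0.05, 4 were higher and 3 lower. The median log2 fold change of the set was 0.01, against -0.11 over all tested genes. Among targets above the detection limit in all 6 regions the medians were 0.03 for 38 proteasome targets and -0.03 for 6600 genes. The levels of the diets did not overlap for 6 targets that were higher in FFD and 3 that were lower, where 12.2% and 24.5% of all genes separated in those directions. The 95% interval of the log2 fold change lay within 0.58 of 0, a 1.5-fold difference either way, for 36 of 46 proteasome targets (78.3%) and for 48.4% of all tested genes. Above the detection limit in all regions those shares were 84.2% of 38 targets and 59.9% of genes. Such shares depend on the width of the intervals and on where the scaling places 0. The median SE was 0.138 for the 46 targets and 0.163 for all tested genes.

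**Figure D1:**
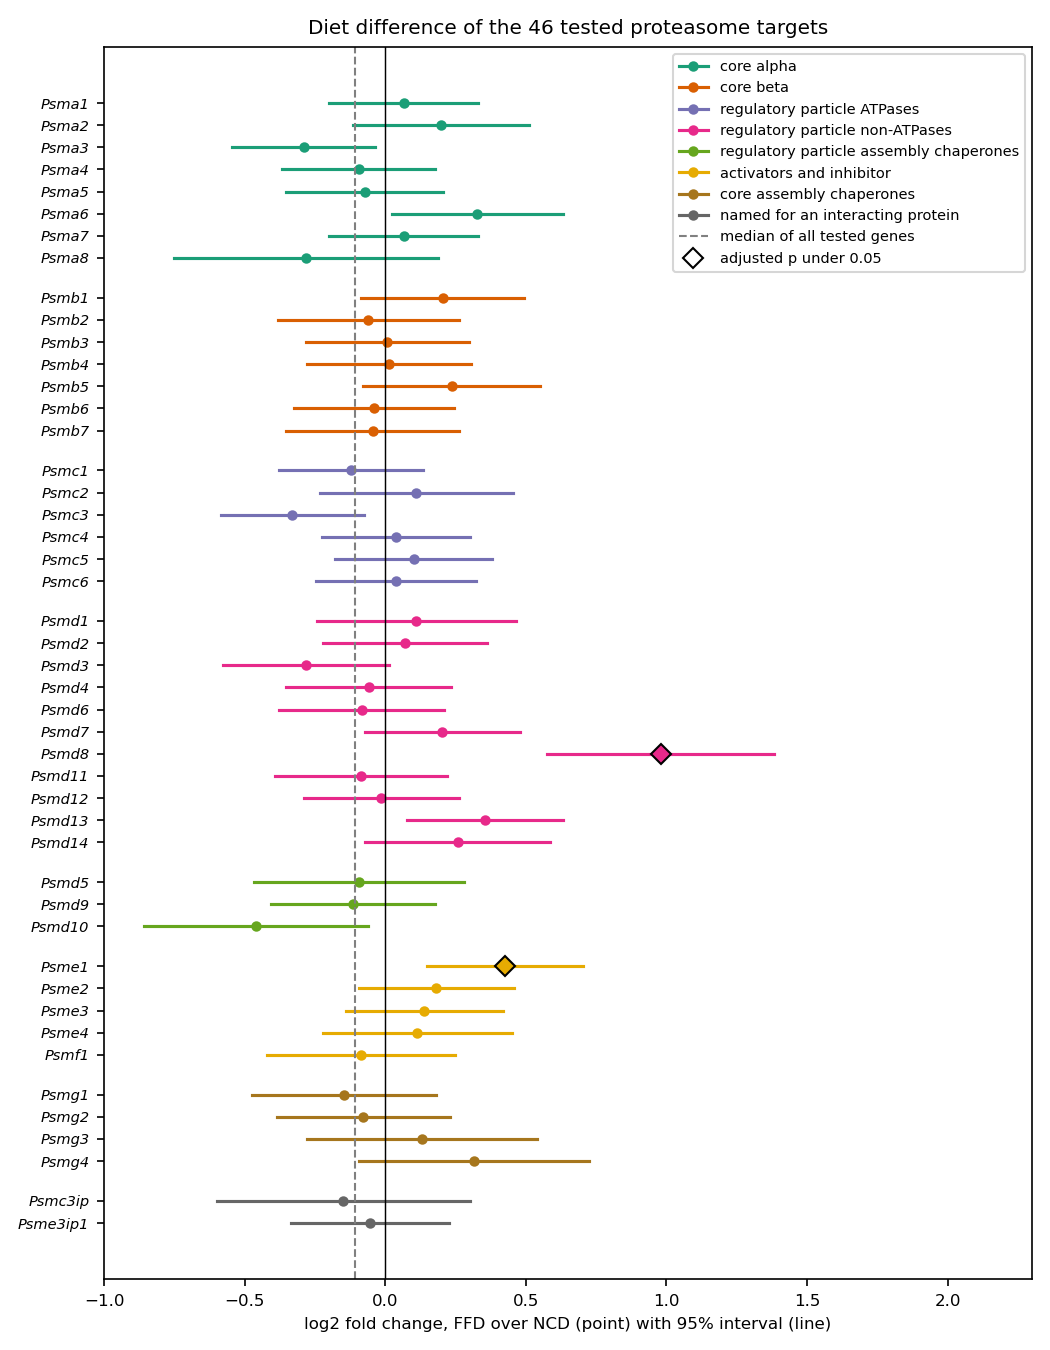
Log2 fold change, FFD over NCD, of the 46 tested targets by class, with 95% intervals from the edgeR fit. The dashed line is the median of all tested genes (-0.11); diamonds mark Psmd8 (0.98) and Psme1 (0.43), the 2 targets that passed the test.

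No core alpha gene passed the test: of 8 tested, 0 were higher and 0 lower, the median log2 fold change was -0.00, and the values ran from -0.29 to 0.33. The class makes the gated outer rings of the core. Psma6 had 155.2, 123.4 and 145.3 CPM in FFD regions 1 to 3, against 95.8, 118.6 and 122.3 CPM in NCD regions 1 to 3. Every FFD value lay above every NCD value, but the lowest FFD value exceeded the highest NCD value only narrowly, and the log2 fold change of 0.33 (SE 0.14) had an edgeR adjusted p of 0.123. Psma3 had the opposite sign, with 61.8, 63.6 and 59.8 CPM in FFD and 77.3, 72.3 and 76.8 CPM in NCD. All 3 FFD values were below all NCD values, with a log2 fold change of -0.29 (SE 0.12) and an edgeR adjusted p of 0.104. The other 5 alpha genes above the detection limit, Psma1, Psma2, Psma4, Psma5 and Psma7, overlapped between the diets, with log2 fold changes of -0.09 to 0.20. Psma8, known as a germ cell form, was under the limit in all 6 regions.

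Summed over the class, core alpha levels were 562 to 607 CPM in FFD regions and 559 to 615 CPM in NCD regions, ranges that overlapped. As a share of the counts of the tested genes in a region, which is scaling on total counts, the class took 0.0597 to 0.0640% in FFD. In NCD it took 0.0550 to 0.0562%, without overlap. Psma6 passed with total count scaling (log2 fold change 0.44, edgeR adjusted p = 0.0396) and with negative probe scaling (0.71, edgeR adjusted p = 0.00326). Psma3 and Psma6 were the alpha genes whose diets separated, in opposite directions, and neither passed the test with upper quartile scaling.

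The core beta class showed the narrowest spread of the classes with more than 4 tested genes, with log2 fold changes from -0.06 to 0.24 and a median of 0.01. Of 7 tested genes 0 were higher and 0 lower, and 0 had an unadjusted p under 0.05. For all 7 the 95% interval lay within 1.5-fold. Psmb5 encodes the chymotrypsin-like catalytic subunit, the main target of proteasome inhibitor drugs. It had 84.3, 61.4 and 60.6 CPM in FFD and 53.0, 58.0 and 63.0 CPM in NCD. FFD region 1 stood above the rest while FFD regions 2 and 3 lay within the NCD range, and the log2 fold change was 0.24 (SE 0.15, edgeR adjusted p = 0.280).

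The other catalytic subunits also overlapped between the diets. Psmb6, the caspase-like subunit, had 120.1, 98.2 and 114.0 CPM in FFD and 104.5, 113.1 and 122.9 CPM in NCD. Psmb7, the trypsin-like subunit, had 114.4, 92.3 and 112.4 CPM in FFD and 92.4, 110.2 and 124.8 CPM in NCD. Both log2 fold changes were -0.04, with edgeR adjusted p-values of 0.866 for Psmb6 and 0.862 for Psmb7, and 95% intervals of -0.32 to 0.24 and -0.35 to 0.26. Psmb1, a structural beta subunit, had 141.1, 116.3 and 141.3 CPM in FFD and 105.5, 114.0 and 125.4 CPM in NCD. Its FFD values were mostly above the NCD values but FFD region 2 fell inside the NCD range (log2 fold change 0.20, edgeR adjusted p = 0.312). The structural subunits Psmb2, Psmb3 and Psmb4 had log2 fold changes of -0.06, 0.01 and 0.01. Psmb11, known as the thymus form, was under the limit in all regions and outside the filtered table. In the fit on all targets its log2 fold change was -0.43 (SE 0.21, edgeR adjusted p = 0.167). Core beta levels summed to 623 to 754 CPM in FFD and 626 to 765 CPM in NCD.

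**Figure D2:**
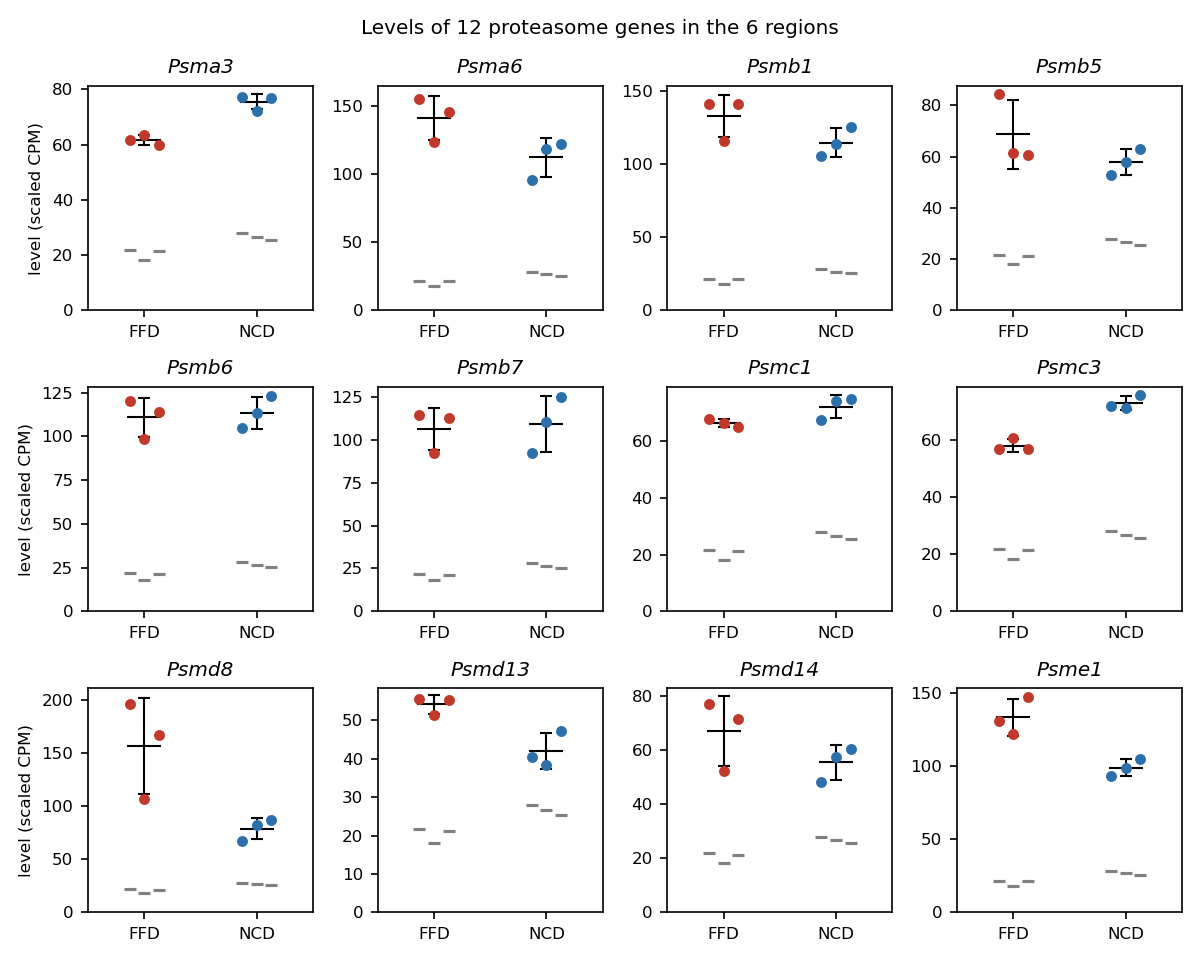
Scaled level in CPM of 12 proteasome genes in 3 FFD (red) and 3 NCD (blue) regions, with mean and SD bars; grey dashes mark the detection limit of each region and each vertical axis starts at 0. Psmd8 and Psme1 passed the test, while Psma3, Psma6, Psmc3 and Psmd13 separated without passing it.

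None of the 6 ATPases of the regulatory particle passed the test, and their median log2 fold change was 0.04. These subunits form the ring that unfolds substrates and threads them into the core. Psmc3 was closest to the threshold, with 56.8, 60.5 and 56.6 CPM in FFD and 72.0, 71.1 and 75.6 CPM in NCD. All FFD values were below all NCD values, and the log2 fold change of -0.33 (SE 0.12) had an edgeR adjusted p of 0.0698. Psmc1 had 67.9, 66.4 and 65.0 CPM in FFD and 67.6, 74.0 and 74.9 CPM in NCD, overlapping at 1 NCD region (log2 fold change -0.12, edgeR adjusted p = 0.509). The other 4, Psmc2, Psmc4, Psmc5 and Psmc6, had log2 fold changes of 0.04 to 0.11 and overlapped between the diets. Testing only targets above the detection limit in 3 regions put Psmc3 past the threshold, lower in FFD (log2 fold change -0.36, edgeR adjusted p = 0.0395). The class summed to 348 to 378 CPM in FFD and 359 to 396 CPM in NCD.

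Among the 11 non-ATPase subunits 1 gene, Psmd8, was higher in FFD and 0 were lower. Psmd8 encodes a subunit of the lid, the part of the regulatory particle that carries the ubiquitin-removing enzyme, and is known for joining late in lid assembly. Its gene lies on the minus strand at chr7:29174187-29180673 of GRCm38.p6. It had 196.3, 107.2 and 167.0 CPM in FFD and 67.6, 82.0 and 87.5 CPM in NCD. Every FFD region was above every NCD region, FFD region 2 by the least, and the FFD regions differed more among themselves than the NCD regions did. The means were 156.9 ± 45.4 CPM in FFD and 79.0 ± 10.3 CPM in NCD (SD, n = 3 each). The log2 fold change was 0.98 (SE 0.19, 95% interval 0.58 to 1.38, edgeR adjusted p = 0.00295), a 1.97-fold higher level. Without FFD region 1 it was 0.78 and without FFD region 2 it was 1.20, and it stayed past the threshold under all 18 alternatives.

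Psmd8 was read against the other subunits within each region, which needs no scaling between regions. It made up 6.48 ± 1.40% of the counts over 32 subunits in FFD and 3.48 ± 0.262% in NCD, with no overlap. These 32 are the tested alpha, beta, ATPase and non-ATPase genes of the name rule. They include Psma8 and leave out the lid subunit Sem1 and the receptor Adrm1, which the rule does not match. Its count ratio to the mean of the other non-ATPases was 2.62 ± 0.576 in FFD and 1.38 ± 0.0685 in NCD, and since probes differ such ratios are compared only between diets. These ratios follow from the same counts as the fold change and add no independent test.

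The bases before the Psmd8 start are shown because it was the member with the largest difference. They are the 250 bases upstream of the RefSeq start in GRCm38.p6, at chr7:29180674-29180923, read 5′ to 3′ on the minus strand in lower case, since no motif is marked.
Psmd8: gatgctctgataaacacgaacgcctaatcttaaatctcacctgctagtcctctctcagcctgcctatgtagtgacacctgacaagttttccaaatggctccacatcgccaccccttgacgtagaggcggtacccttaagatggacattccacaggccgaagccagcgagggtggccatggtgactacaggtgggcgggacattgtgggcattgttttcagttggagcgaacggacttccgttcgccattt

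Of the other non-ATPases, Psmd13, a lid subunit, had 55.7, 51.4 and 55.4 CPM in FFD and 40.4, 38.3 and 47.3 CPM in NCD. The diets did not overlap, and the log2 fold change of 0.36 (SE 0.13) had an edgeR adjusted p of 0.0711. It passed with TMM scaling (0.45, edgeR adjusted p = 0.0313), DESeq2 size factors, total counts and negative probe scaling, and without NCD region 3. Psmd14, the deubiquitinase that cuts ubiquitin chains from the substrate, had 77.0, 52.4 and 71.5 CPM in FFD and 48.1, 57.6 and 60.5 CPM in NCD. FFD regions 1 and 3 were above the NCD range and FFD region 2 inside it (log2 fold change 0.26, SE 0.15, edgeR adjusted p = 0.261). Psmd7, its partner in the lid, separated by a small margin, with 52.6, 48.0 and 49.4 CPM in FFD and 37.4, 45.4 and 46.4 CPM in NCD (log2 fold change 0.20, edgeR adjusted p = 0.291).

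The other 7 non-ATPases overlapped between the diets. They comprise Psmd1 and Psmd2, the large scaffold subunits of the base, Psmd4, a ubiquitin receptor, and the lid subunits Psmd3, Psmd6, Psmd11 and Psmd12. Their log2 fold changes ran from -0.28 for Psmd3 to 0.11 for Psmd1. Psmd1 was above the detection limit in 2 FFD regions and 0 NCD regions. Without Psmd8 the median of the 10 remaining non-ATPases was 0.03 and 0 were called. Class sums were 643 to 822 CPM in FFD and 586 to 698 CPM in NCD, which overlapped. Shares of the counts of the tested genes were 0.0692 to 0.0868% in FFD and 0.0583 to 0.0654% in NCD, without overlap.

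**Figure D3:**
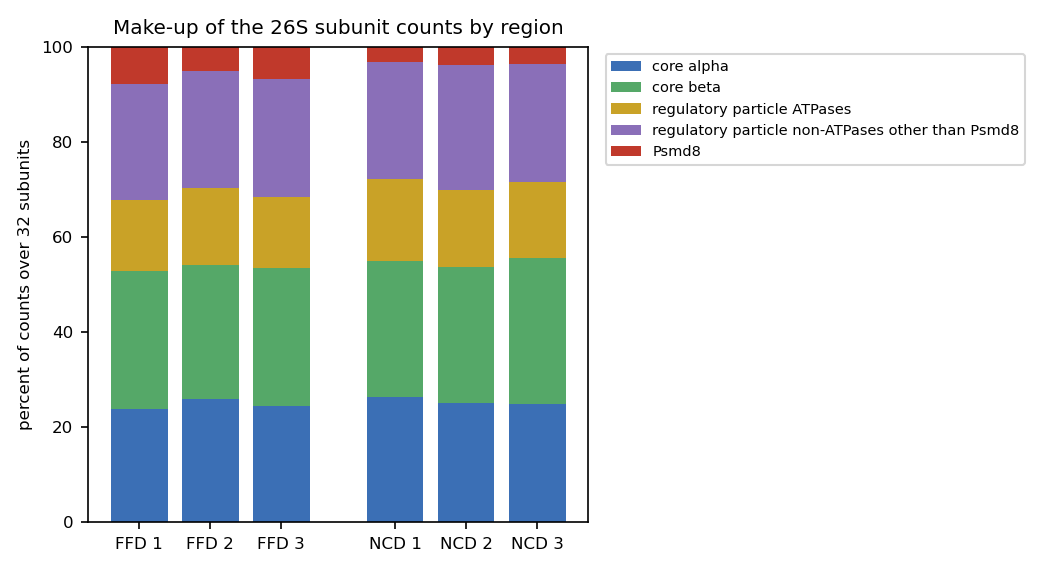
Percent of the counts over the 32 tested subunits of the name rule that each class takes, in each FFD region (left) and NCD region (right). The Psmd8 segment is 6.48% on average in FFD and 3.48% in NCD, and the core alpha segment 24.8% in FFD and 25.5% in NCD.

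The balance between the classes was similar in the diets once Psmd8 was set aside. Core alpha genes took 24.8% of the subunit counts in FFD and 25.5% in NCD, and core beta genes 28.7% in FFD and 29.3% in NCD. The ATPases took 15.3 ± 0.696% in FFD and 16.5 ± 0.656% in NCD, without overlap, and the non-ATPases 31.2% in FFD and 28.7% in NCD. Without Psmd8 the shares were 26.5% in FFD and 26.5% in NCD for core alpha and 30.7% in FFD and 30.3% in NCD for core beta. They were 16.3% in FFD and 17.1% in NCD for ATPases and 26.5% in FFD and 26.1% in NCD for non-ATPases. All 4 classes then overlapped between the diets. As a percent of the counts of the tested genes in a region, the 32 subunits took 0.248 ± 0.0186% in FFD and 0.218 ± 0.00708% in NCD, without overlap. Without Psmd8 they took 0.232 ± 0.0143% in FFD and 0.210 ± 0.00644% in NCD. This share rests on total counts, under which the median gene had a log2 fold change of 0.01 and the median proteasome target 0.13. These sums carry no test.

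Of the chaperones that assemble the regulatory particle, Psmd5, Psmd9 and Psmd10, 0 of 3 passed the test and all 3 had negative log2 fold changes. Psmd10, also called gankyrin, had 14.9, 20.3 and 13.6 CPM in FFD and 20.4, 22.3 and 24.8 CPM in NCD. The diets did not overlap, but FFD region 2 and NCD region 1 nearly met, and Psmd10 was above the detection limit in only 1 of the 6 regions (log2 fold change -0.46, SE 0.19, edgeR adjusted p = 0.0990). It passed without FFD region 2 (-0.67, edgeR adjusted p = 0.0475). Psmd9 had 44.2, 44.3 and 41.4 CPM in FFD and 41.8, 55.5 and 43.6 CPM in NCD, which overlapped (log2 fold change -0.12, edgeR adjusted p = 0.594). The core assembly chaperones Psmg1 to Psmg4 had log2 fold changes of -0.15 to 0.32, with 0 of 4 called. Psmg4 had 27.1, 24.3 and 28.5 CPM in FFD and 24.8, 14.3 and 24.5 CPM in NCD, overlapping and near the limit (log2 fold change 0.32, edgeR adjusted p = 0.269). Psmg1 had 27.1, 30.9 and 24.9 CPM in FFD and 34.0, 27.3 and 31.0 CPM in NCD, also overlapping (log2 fold change -0.15, edgeR adjusted p = 0.536).

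Psme1 was the member of the activator group that passed the test. With Psme2 it forms the cap that opens the core without ATP or ubiquitin, and both are known as interferon-induced genes. The Psme1 gene lies on the plus strand at chr14:55578494-55581527 of GRCm38.p6. It had 130.8, 122.2 and 146.9 CPM in FFD and 93.3, 98.4 and 105.0 CPM in NCD. All FFD values were above all NCD values, with means of 133.3 ± 12.6 CPM in FFD and 98.9 ± 5.87 CPM in NCD (SD, n = 3 each). The log2 fold change was 0.43 (SE 0.13, 95% interval 0.15 to 0.70, edgeR adjusted p = 0.0361), a 1.34-fold higher level. The call was lost in 5 of 18 alternatives, with adjusted p-values of 0.0554 after background subtraction (limma), 0.0562 without FFD region 1, 0.107 without FFD region 3, 0.135 without NCD region 1 and 0.131 without NCD region 2. Its partner Psme2 had 53.8, 57.7 and 54.2 CPM in FFD and 49.1, 42.9 and 53.6 CPM in NCD, separated by a small margin (log2 fold change 0.18, edgeR adjusted p = 0.346). The nuclear activator Psme3, the activator Psme4 and the inhibitor Psmf1 had log2 fold changes of 0.14, 0.11 and -0.09 and overlapped. The name-matched Psmc3ip and Psme3ip1 had log2 fold changes of -0.15 and -0.05, and Psmc3ip was under the limit in all regions.

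The immune subunits were set beside the constitutive subunits whose place they take. Psmb8, which replaces Psmb5, had 53.8, 47.1 and 59.0 CPM in FFD and 33.5, 30.7 and 40.4 CPM in NCD. Psmb9, which replaces Psmb6, had 39.6, 40.8 and 40.1 CPM in FFD and 29.2, 26.9 and 30.4 CPM in NCD. Both separated and passed the test, with log2 fold changes of 0.59 (SE 0.14, edgeR adjusted p = 0.0117) and 0.48 (edgeR adjusted p = 0.0237). Psmb10, which replaces Psmb7, had 27.4, 34.6 and 48.6 CPM in FFD and 17.5, 26.1 and 31.4 CPM in NCD, overlapped and did not pass (0.52, edgeR adjusted p = 0.107). It was above the detection limit in 3 FFD regions and 1 NCD region, and under it in NCD regions 1 and 2. Psmb9 in NCD region 2 was just above the limit of 26.6 CPM. Psmb8 lost its call without NCD region 2 (log2 fold change 0.51, edgeR adjusted p = 0.0748). Psmb9 lost it without FFD region 2 (0.46, edgeR adjusted p = 0.0681), NCD region 1 (0.48, 0.0645) or NCD region 2 (0.43, 0.110). Psmb10 passed without FFD region 1 (edgeR adjusted p = 0.0482), without NCD region 3 (0.0498) and with negative probe scaling (0.00223). Immune subunits are abundant in macrophages. The sums given above for the Kupffer cell and macrophage list and for the lipid-associated macrophage list were higher in the same regions. On the former list Clec4f, Folr2, Marco and Timd4 were not higher, and on the latter Fabp5 was not. The part of macrophages in these values was not tested.

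The log2 ratio of constitutive to immune counts, taken within a region, was lower on average in FFD for all 3 pairs. Psmb6 over Psmb9 was 1.60, 1.27 and 1.51 in FFD and 1.84, 2.07 and 2.01 in NCD, without overlap. The difference was -0.52, with an exact two-sided permutation p of 0.1, the smallest that 3 against 3 regions allow. Psmb5 over Psmb8 averaged 0.36 ± 0.31 in FFD and 0.74 ± 0.16 in NCD, and Psmb7 over Psmb10 averaged 1.56 ± 0.44 in FFD and 2.16 ± 0.21 in NCD (SD, n = 3 each). These differed by -0.38 and -0.60 with overlap, each with an exact permutation p of 0.2. For the latter pair, Psmb10 was under the detection limit in NCD regions 1 and 2. After adjustment over the 3 ratios each exact permutation p was 0.2, so no ratio difference passed.

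**Figure D4:**
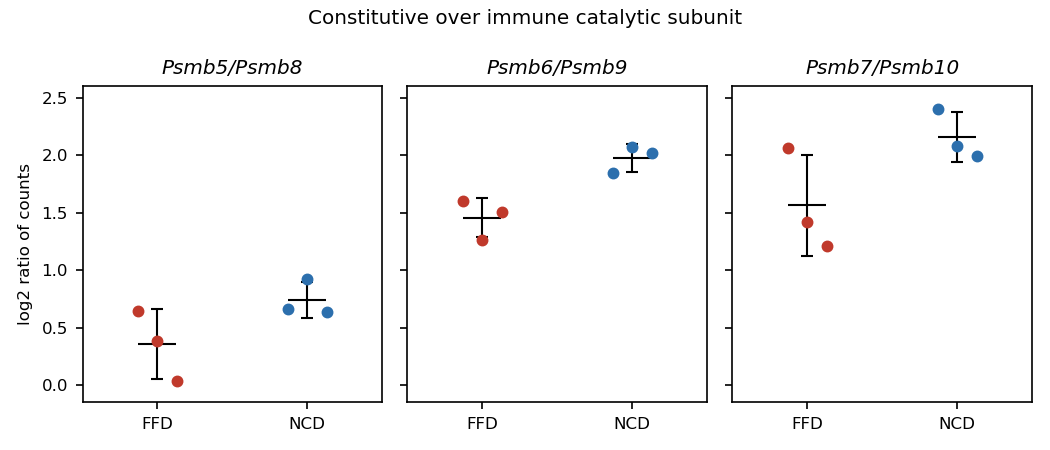
Log2 ratio of counts of each catalytic constitutive subunit over its immune counterpart in 3 FFD (red) and 3 NCD (blue) regions, with mean and SD bars. For Psmb6 over Psmb9 the FFD regions (1.27 to 1.60) lie below the NCD regions (1.84 to 2.07); the other pairs overlap.

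Genes that work with the proteasome but lie outside the name rule were taken from 4 lists. Of 11 tested partners of the particle 2 were higher and 0 lower, where 5.94% of all genes were higher and 11.1% lower. These were Sem1, the smallest lid subunit, and Pomp, the chaperone that matures the core. Sem1 had 132, 127 and 139 CPM in FFD and 96.7, 91.3 and 103 CPM in NCD (log2 fold change 0.45, edgeR adjusted p = 0.0243). Pomp had 127, 118 and 130 CPM in FFD and 89.9, 87.1 and 100.03 CPM in NCD (0.44, edgeR adjusted p = 0.0285). In both genes the diets did not overlap, but both calls were lost in some fits with a region left out. In those fits the log2 fold changes were 0.41 to 0.45 for Sem1 and 0.40 to 0.42 for Pomp. Sem1 lost its call without FFD region 3 (edgeR adjusted p = 0.0581), NCD region 1 (0.0839) or NCD region 2 (0.130), and Pomp without FFD region 1 (0.0571), FFD region 3 (0.0632), NCD region 1 (0.103) or NCD region 2 (0.140). The receptor Adrm1 and the deubiquitinases Usp14 and Uchl5, which dock on the regulatory particle, had log2 fold changes of 0.00, 0.26 and -0.00 and were not called.

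The NRF1 transcription factor, encoded by Nfe2l1, is known to raise proteasome genes when the proteasome is inhibited. Nfe2l1 itself had a log2 fold change of -0.03 (edgeR adjusted p = 0.893). Of 7 tested genes on that axis 1 was higher and 2 were lower. For this list and the 2 ubiquitin lists below, the shares over all genes were again 5.94% higher and 11.1% lower. Nfe2l2, which encodes the related oxidative stress factor NRF2, was higher (0.66, edgeR adjusted p = 0.00654, and 0.0571 without NCD region 2). Syvn1, an ubiquitin ligase of the endoplasmic reticulum (-0.68, edgeR adjusted p = 0.0113), and Mafg, a small Maf partner of both factors (-0.42, edgeR adjusted p = 0.0359), were lower. Mafg lost its call in 11 of 18 alternatives, among them TMM scaling (-0.32, edgeR adjusted p = 0.108), negative probe scaling (-0.02, 0.933) and the fits without FFD region 1 (0.105), FFD region 3 (0.0672), NCD region 1 (0.131) or NCD region 2 (0.126). Syvn1 lost its call with negative probe scaling (-0.29, edgeR adjusted p = 0.232) and the DESeq2 Wald test (adjusted p = 0.0667). Of 4 ubiquitin genes the polyubiquitin gene Ubb was higher (0.82, edgeR adjusted p = 0.0117) and 0 were lower. The Ubb call was lost after background subtraction (limma adjusted p = 0.178) and, in the edgeR fit, without NCD region 1 (0.0876) or NCD region 2 (0.103). Of 15 genes for ubiquitin activation and shuttling 2 were higher and 0 lower. They were Sqstm1, an autophagy receptor that binds ubiquitin (0.75, edgeR adjusted p = 0.00557), and Nsfl1c, a cofactor of the unfolding ATPase Vcp (0.43, edgeR adjusted p = 0.0351). Sqstm1 kept its call under all 18 alternatives. Nsfl1c lost it after background subtraction (limma adjusted p = 0.0545) and, in the edgeR fit, without FFD region 1 (0.104), NCD region 1 (0.126) or NCD region 2 (0.133).

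Promoter windows, from 250 bases before to 50 after a RefSeq start in GRCm38.p6, were found for 39 of the 47 genes and searched on both strands for 4 motifs. The ETS core CCGGAAG was in the windows of 16 of 39 proteasome genes (41.0%) and in 9.93% of all genes. Of these 16, 0 were called, and their log2 fold changes ran from -0.15 to 0.36. The antioxidant response element TGACNNNGC, which NRF1 and NRF2 are known to bind, was in 6 of 39 (15.4%), against 13.99% of all genes, and those 6 had log2 fold changes of -0.12 to 0.24. The CCAAT box was in 15 of 39 (38.5%), against 41.1%. The interferon-stimulated response element, added after the values were seen, was in 5 of 39 (12.8%), against 3.99%. Psme1 held this element, and the other 4 genes that did were not called. The window of Psmb9, an immune subunit that was called, was also searched and held no match to this element. The Psmd8 window held no match, which says only that these letters are not in this window. A match is a description of letters and not of a binding site.

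The stretches below are of 30 bases from RefSeq GRCm38.p6, 5′ to 3′ on the strand of the gene, with the matched motif, or its reverse complement, in capitals. Psme1 is shown as the called activator, Psmb5 and Psmb6 as the catalytic genes with the antioxidant element, and Psmd13, Psmc1 and Psmd2 for the motif that was most frequent in the set relative to all genes.
Psme1, interferon element, chr14:55578493-55578522, plus strand: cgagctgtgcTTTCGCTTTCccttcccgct
Psmb5, antioxidant element, chr14:54618024-54618053, minus strand: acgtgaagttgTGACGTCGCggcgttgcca
Psmb6, antioxidant element, chr11:70525337-70525366, plus strand: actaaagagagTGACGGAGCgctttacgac
Psmd13, ETS core, chr7:140882376-140882405, plus strand: gcgcccgcggtgCCGGAAGtgagcgagcac
Psmc1, ETS core, chr12:100110162-100110191, plus strand: ttggtggatgcaCTTCCGGcggtggcgatt
Psmd2, ETS core, chr16:20651614-20651643, plus strand: atccgcagggcgCTTCCGGtctggaggaca
The genes with these stretches include a called gene (Psme1, log2 fold change 0.43) and genes near 0 (Psmb6, -0.04, and Psmd2, 0.07).

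The scaling between regions set the level of all proteasome values together. The median of the 46 targets exceeded the median of all genes by 0.12 on the log2 scale with upper quartile scaling, and by 0.05 to 0.22 over the 18 alternatives. Relative to the median gene, Psmd8 was higher in FFD by 1.09 (0.90 to 1.30 over the alternatives) and Psme1 by 0.53 (0.44 to 0.64). With negative probe scaling, 20 of 46 targets were called higher in FFD, where 3632 of all genes were.

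**Figure D5:**
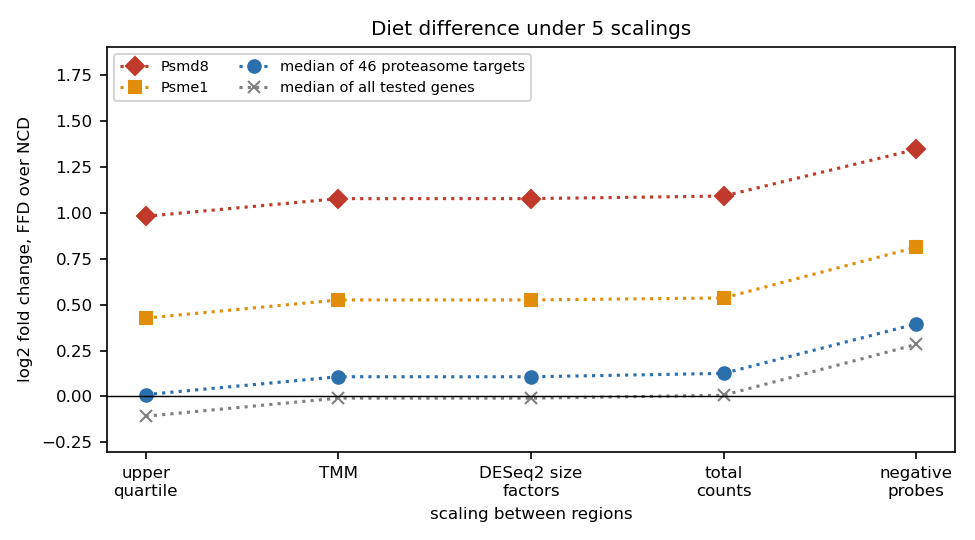
Log2 fold change, FFD over NCD, of Psmd8, Psme1, the median of 46 proteasome targets and the median of all 13095 tested genes under 5 scalings between regions. All 4 lines shift together: Psmd8 is 0.98 with upper quartile and 1.34 with negative probe scaling, where the median gene is -0.11 and 0.28.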

How the data were processed

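RNA in 6 Albumin-positive liver areas was measured with GeoMx mouse whole transcriptome probes. A no template control was not used here. The deposited table holds expected counts per target after probe quality control, whole numbers for all but 4 targets, which were rounded. The series text calls them molecule counts. A second deposited table holds the same counts for a filtered set of 13099 of 19963 targets, by a rule not given in the sources used here, and 4 that are not genes were left out. The 12 such targets of the full table held 0.0145 to 0.0192% of counts. The deposited Q3 signal equals, for the proteasome targets within 0.105%, those counts scaled by the third quartile of each region, per the labels' protocols. Nuclei and deduplicated reads are deposited counts, and sequencing saturation is a deposited percent (99.1 to 99.3). Area and probes per target are other deposited quantities. The submitters' processing notes list GRCm38 and edgeR, with no version.

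Counts of 13095 genes were fitted by diet alone with the quasi-likelihood functions glmQLFit and glmQLFTest (edgeR 4.0.16, R 4.3.3) after upper quartile scaling at 0.75. Adjusted p-values are by Benjamini-Hochberg over all these genes, with a threshold of 0.05. The fit gave a biological coefficient of variation of 12.0%. Log2 fold changes are FFD over NCD. The standard error was taken as the size of the log2 fold change over the root of its F statistic, and the 95% interval uses the moderated degrees of freedom. The procedure was run on simulated counts drawn with the same biological coefficient of variation for every gene. That run does not cover differences in spread between genes. The intervals cover counting error and the spread between regions as estimated in the fit, and no other error. Ratios were compared by exact two-sided permutation.

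Subunit, chaperone and activator targets given in every region were those past the threshold, the catalytic subunits, Psmd14 and at least the 2 with the smallest p in each class. Genes of the other lists were named where they passed, most of them by their fold change alone. Psmd7 and Psme2 were added after their values were seen. Members and lists were chosen with earlier results of these data known. Alternatives were 4 scalings, DESeq2 1.42.0, limma 3.58.1 on the Q3 signal, edgeR's robust option, 3 filters, background subtraction, leaving out each region, and region numbers as a block. The region notes number regions 1 to 3 within each diet. Deviations of regions with the same number correlated at 0.0322, 0.0329 and 0.0857, so the numbers were not taken to pair regions.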

Additional observations from a re-analysis of the deposited data

How the results depend on the processing

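Of 823 proteasome values recomputed over 18 alternatives, 793 stayed on the same side of the threshold, 5 lost a call, 25 gained one and 0 called values changed sign. Uncalled values changed sign 123 times, in 27 genes. The 5 losses were all of Psme1. Over all genes, calls lower in FFD numbered 893 with TMM, 894 with DESeq2 size factors, 604 with total counts, 206 with negative probes, 467 with the DESeq2 Wald test and 719 after background subtraction, against 1459, and calls higher numbered 3632 with negative probes, against 778. Proteasome targets higher in FFD numbered 4 with total counts, 20 with negative probes and 1 after background subtraction, against 2, and 1 was lower with the filter at the detection limit. By class, calls higher with negative probes were 4 of core alpha, 2 of core beta, 3 of the ATPases, 6 of the other Psmd genes and 5 of the activators, inhibitor and core assembly genes. Core alpha had 1 higher with total counts, and the other Psmd genes 2 with TMM, DESeq2 size factors or total counts. The ATPases had 1 lower with the filter at the detection limit, and the activator group 0 higher after background subtraction. For the 4 partner and ubiquitin lists, calls higher were 12 with negative probes, against 6. Calls lower there were 1 with TMM, DESeq2 size factors, total counts, no filter or filterByExpr, and 0 with negative probes or the DESeq2 Wald test, against 2. Where scaling, filter or test changed a call, the cause was not tested.

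Leaving out single regions gave 396 to 853 genes higher and 617 to 1778 lower, with 1 to 3 proteasome targets higher and 0 to 1 lower. For the other Psmd genes this gave 1 to 2 higher and 0 to 1 lower, for the activator group 0 to 1 higher, and for the partner and ubiquitin lists 1 to 6 higher and 1 to 2 lower. With the region number as a replicate block, added after the data were seen, 850 genes were higher and 1673 lower, with 2 proteasome targets higher and 0 lower, and Psmb10 passed (edgeR adjusted p = 0.0194). All 6 regions correlated best with the region of the same number, a hint from the data and not the design. Of 717 values of other named genes 675 were on the same side of the threshold, 32 lost and 10 gained a call. With 3 regions per diet the 95% interval reached past 1.5-fold for all but 36 of the 46 targets, and Psmd1, Psmd10, Psmg3 and Psmg4 lay near the detection limit.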
